A study of Homo sapiens with 4 samples.

Results

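The genes described here are 53 neighbours on the long arm of human chromosome 5, in bands 5q15 to 5q23, from NR2F1 at the centromeric end to COMMD10 at the telomeric end. They were chosen because many of them had lower values in MTAC-P than in PC9 cells, so that contrast is given for them as a description and was not tested. Of the 53 genes, 50 had a probe set naming that gene alone, among 18239 such genes on the array. LNPEP, PCSK1 and YTHDC2 had none and are named only. Where several probe sets named a gene, the one with the highest 4-array mean was taken, and differences are MTAC-P minus PC9 on the log2 scale.

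PC9 cells come from a human lung adenocarcinoma that carries an activating mutation in EGFR. MTAC-P is labelled as a resistant line raised by mild exposure to a tyrosine kinase inhibitor, with no inhibitor, dose or parent line named. Total RNA of each line, grown in the same serum-containing medium, was measured on 2 one-colour arrays. The 2 arrays of a line are called duplicates without saying whether they came from separate cultures, and each line stands for its condition alone. In total RNA of a culture, fewer cells with a transcript and less of it per cell cannot be told apart. All 8 markers of adenocarcinoma epithelium examined, such as EPCAM, KRT7 and KRT18, lay between 7.36 and 14.4 in both lines, whereas 0 of 4 fibroblast markers had a mean above 4.86, the median over probe sets. Of the 3 blood markers with a value, the leukocyte marker PTPRC lay between 3.94 and 4.04 and the T cell gene CD3E between 4.41 and 5.13, but CD68, a macrophage gene, lay between 8.90 and 9.36. The 3 endothelial markers lay between 4.35 and 5.95. The lineage factor NKX2-1 lay between 4.72 and 5.22, and SFTPB and NAPSA did not exceed 4.85, so the lung lineage markers were near the low end of the scale in both lines.

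Neighbouring genes need not share a function, but they share the DNA around them, so a gain or loss of a chromosome segment or a change in a chromatin domain can touch many at a time. This stretch of chromosome 5 is gene-poor. It holds APC, the tumour suppressor that keeps beta-catenin low in the Wnt pathway, and, close by, MCC, a gene named from colorectal cancer. It also holds the aminopeptidases that trim peptides for HLA class I, calpastatin, the inhibitor of calpain proteases, and several parts of the RNA turnover, ubiquitin and secretory machineries.

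Of the 50 genes with a value, 40 were lower in MTAC-P and 10 were higher, and the median difference was -0.40. Over all 18239 genes with a value, 46.2% were lower and the median was 0.027. For 32 of the 50, both MTAC-P arrays lay below both PC9 arrays, against 23.3% of all genes. The reverse, with both MTAC-P arrays above, held for 4 of the 50, against 27.1% of all genes. A difference of -0.5 or lower was found for 23 of the 50, against 8.85% of all genes, while 3 were at least 2-fold lower, against 1.33%, and RGMB alone was at least 2-fold higher, against 0.329%. With 2 arrays a line, limma called 3 of the 14970 genes above the dim level in either direction at an adjusted p of 0.05, or 0.02%. The count of 23 was 10 when a gene's probe sets were averaged and 15 without MTAC-P replicate 2. Since the genes were picked on this contrast, these shares show the size of the pattern and do not test it.

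**Figure D1:**
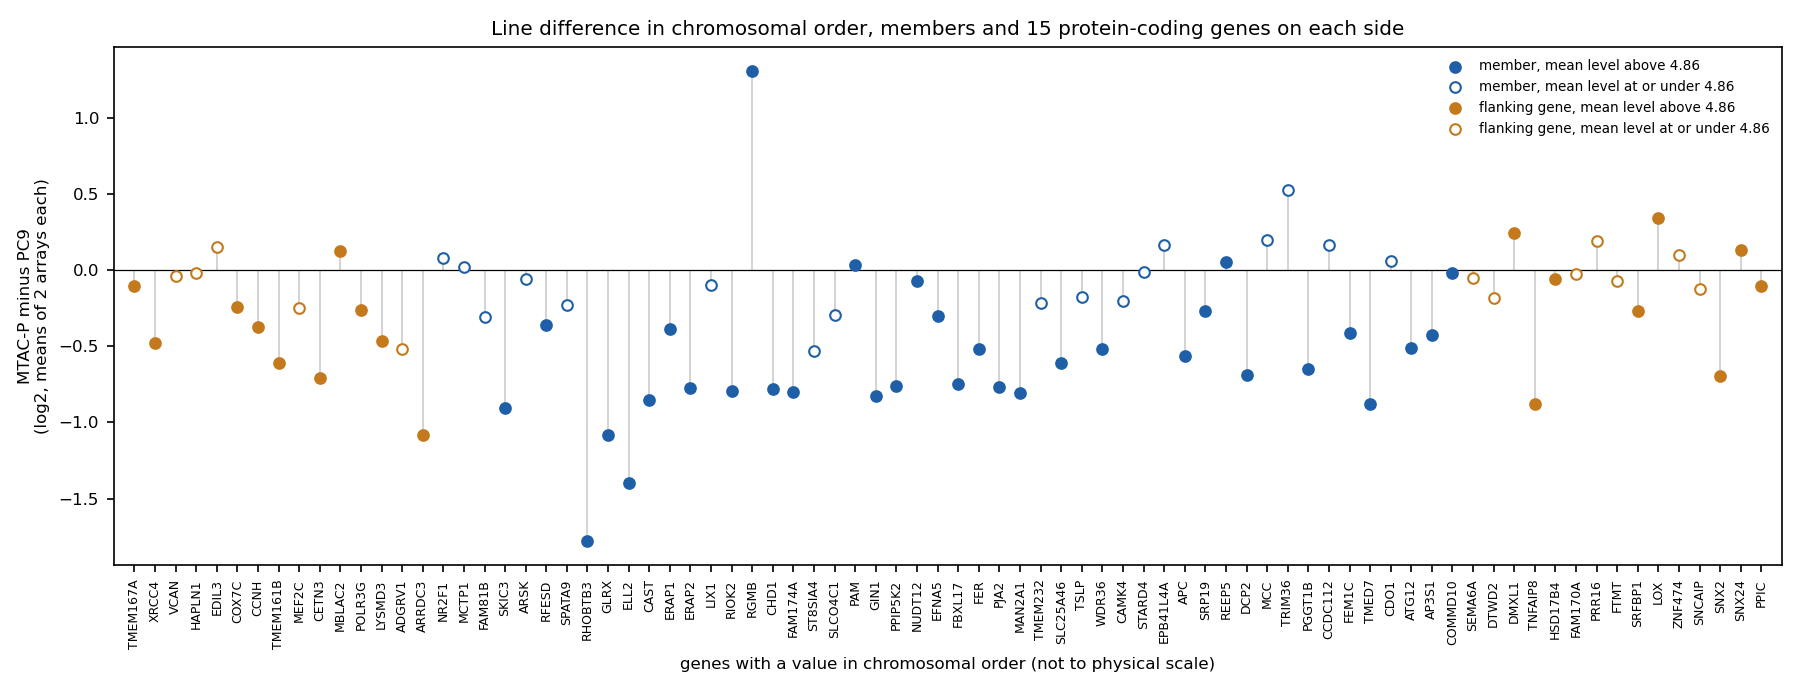
Difference MTAC-P minus PC9 (y axis, log2, means of 2 arrays per line) for the 50 genes with a value and the 15 nearest protein-coding genes on each side, in chromosomal order (x axis, not to physical scale). Filled points are genes with a mean above 4.86, open points genes at or under it. Most filled blue points lie between -0.4 and -0.9, RHOBTB3 is lowest at -1.78, RGMB stands alone at 1.31, and the filled flanking points before NR2F1 are also mostly below 0.

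Lower values were more frequent among the brighter genes. The median of all probe sets' 4-array means was 4.86, and 33 of the 50 genes had a mean above it. Of these 33 genes, 30 were lower, against 47.2% of genes above that level, with a median difference of -0.65, and 27 were lower with arrays that did not overlap, against 28.0% of those 10589 genes. A difference of -0.5 or lower was found for 22 of the 33, against 14.2%. Of the 17 genes at or under 4.86, 10 were lower and 7 higher, with a median of -0.060. Of all 7650 genes at or under that level, 44.8% were lower, with a median of 0.026. Lower with arrays that did not overlap were 5 of the 17, against 16.7% of the 7650. No detection calls were given, so whether transcripts of the 17 genes were present was not determined. Across the 50 genes Pearson's r between difference and mean level was -0.36 and Spearman's correlation was -0.44. These points come from the same 4 arrays.

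**Figure D2:**
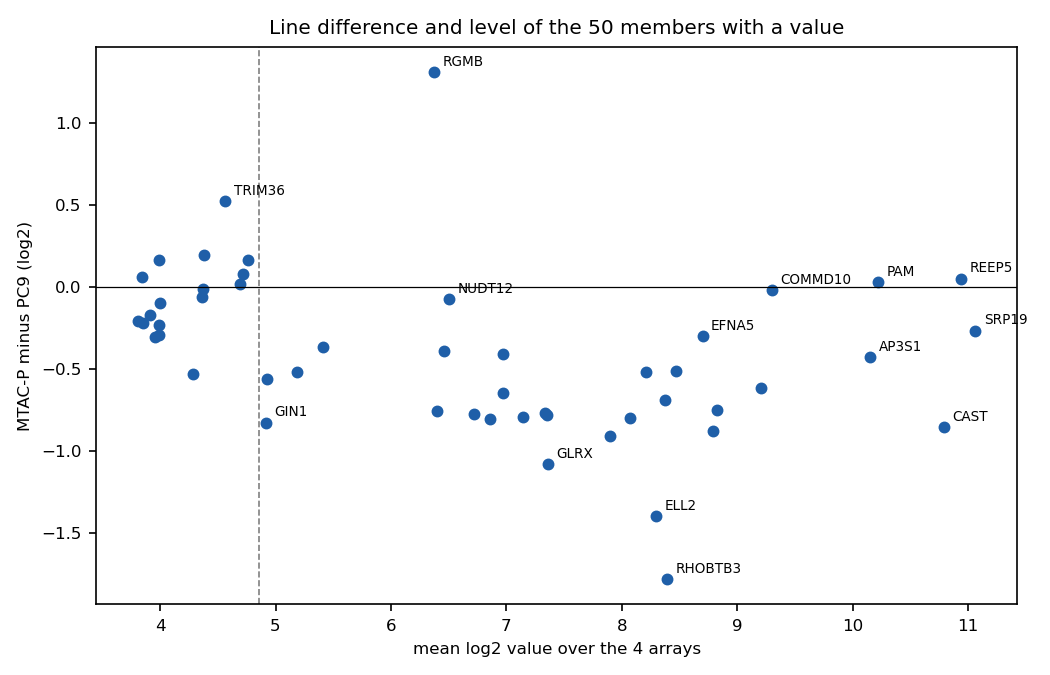
Difference MTAC-P minus PC9 (y axis, log2) against the mean log2 value over the 4 arrays (x axis) for the 50 genes with a value, with the dashed line at 4.86. Genes at or under 4.86 lie between -0.53 and 0.53, with a median of -0.060. Most brighter genes lie between -0.4 and -0.9, and the bright genes PAM, REEP5 and COMMD10 lie near 0.

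RHOBTB3 had the largest difference. It encodes a protein that takes part in CUL3 ubiquitin ligases. RHOBTB3 measured 9.12 and 9.45 in PC9 and 7.14 and 7.88 in MTAC-P, a difference of -1.78, or 3.43-fold lower. The 4 arrays did not overlap, and all 4 probe sets of the gene lay between -1.78 and -1.44. Its neighbours GLRX and ELL2 came next. GLRX, a glutaredoxin that removes glutathione from protein thiols, measured 7.48 and 8.33 in PC9 and 6.53 and 7.12 in MTAC-P, a 2.12-fold lower mean. The GLRX difference was -1.08, its 3 probe sets lay between -1.08 and -0.90, and it was -0.66 without PC9 replicate 2, the higher of the PC9 arrays. ELL2, a transcription elongation factor, measured 8.86 and 9.14 in PC9 and 7.91 and 7.29 in MTAC-P, a difference of -1.40, or 2.63-fold lower. Both MTAC-P arrays of ELL2 lay well below the PC9 arrays, and its 5 probe sets above the dim value of 4.14, the 25th percentile over probe sets, ranged from -1.40 to -0.30.

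**Figure D3:**
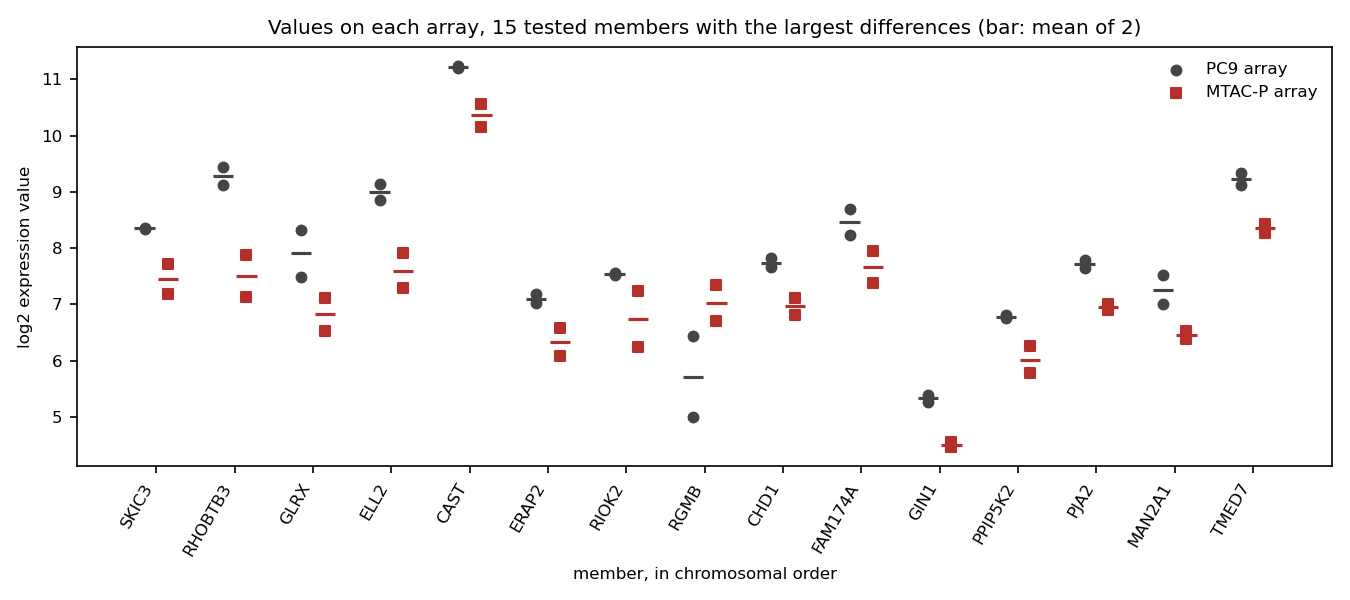
Log2 expression value (y axis) on each PC9 array (grey circles) and each MTAC-P array (red squares) for the 15 genes with the largest differences among those above the dim value, in chromosomal order (x axis). Bars are means of 2 arrays. In 14 of the 15 genes both red squares lie below both grey circles, and in RGMB both lie above. The 15 were picked for large differences, so this separation follows largely from the choice. Of all genes, 23.3% were lower and 27.1% higher with no overlap.

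The 3 measured genes of the peptidases and their inhibitor were all lower on their brightest probe sets, against 46.2% of all genes. CAST, calpastatin, was one of the brightest genes of the stretch and measured 11.19 and 11.23 in PC9 and 10.56 and 10.16 in MTAC-P, a difference of -0.85. All 10 probe sets of CAST were lower, by differences from -1.05 to -0.13. ERAP2 measured 7.03 and 7.18 in PC9 and 6.58 and 6.08 in MTAC-P, a difference of -0.77. ERAP1 had a difference of -0.39, and of its 3 probe sets above the dim value 1 was lower. The sign of ERAP1 turned with other summaries, to 0.065 with its probe sets averaged and 0.21 with the median of those above the dim value. ERAP1 and ERAP2 encode endoplasmic reticulum aminopeptidases that shorten peptides before HLA class I binds them. CAST and ERAP2 arrays were clearly apart between the lines, and MTAC-P replicate 2 was the lowest array for CAST, ERAP1 and ERAP2.

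All 5 measured genes of RNA turnover, translation and ribosome assembly were lower with no overlap, against 23.3% of all genes. Their median was -0.69. Of the 33 genes of the stretch above 4.86, 27 were lower with no overlap, so this was not particular to the group. SKIC3, the scaffold of the Ski complex that feeds RNA to the exosome, measured 8.36 and 8.35 in PC9 and 7.72 and 7.18 in MTAC-P, a difference of -0.91. The PC9 arrays of SKIC3 were almost equal, and both MTAC-P arrays lay below them. RIOK2, an atypical kinase needed to mature the small ribosomal subunit, measured 7.56 and 7.52 in PC9 and 7.24 and 6.25 in MTAC-P. Its difference was -0.79, of which much came from MTAC-P replicate 2, and without that array it was -0.30. DCP2, the mRNA decapping enzyme, differed by -0.69 (-0.45 without MTAC-P replicate 2), and its 3 probe sets above the dim value ranged from -1.21 to 0.23. WDR36, which acts in ribosomal RNA processing, differed by -0.52, and its 3 probe sets ranged from -0.52 to -0.026. SRP19, a protein of the signal recognition particle and the brightest gene of the stretch, differed by -0.27.

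In the chromatin and transcription group, CHD1, a chromatin remodeller, measured 7.83 and 7.66 in PC9 and 7.12 and 6.81 in MTAC-P, a difference of -0.78. NR2F1, an orphan nuclear receptor at the centromeric end, was dim, at 4.75 and 4.61 in PC9 and 4.66 and 4.86 in MTAC-P. The arrays of CHD1 were apart and those of NR2F1 overlapped. Among the kinases, FER, a non-receptor tyrosine kinase, differed by -0.52 on its brightest probe set, while its other 3 above the dim value gave -0.0045, -0.0034 and 0.44. CAMK4, a calmodulin-dependent kinase, was under the dim value on all 4 arrays. PPIP5K2, which makes inositol pyrophosphates, measured 6.75 and 6.80 in PC9 and 6.26 and 5.78 in MTAC-P, a difference of -0.76.

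Beside RHOBTB3, the ubiquitin ligase genes held 3 further lower members and 1 higher one, where 46.2% of all genes were lower. PJA2, a RING-type ligase, measured 7.79 and 7.65 in PC9 and 7.01 and 6.89 in MTAC-P, a difference of -0.77, with close duplicates in both lines. FBXL17, an F-box protein, differed by -0.75, and FEM1C, a substrate receptor of CUL2 ligases, by -0.41 with overlapping arrays and by 0.039 without MTAC-P replicate 2. TRIM36 was higher by 0.53, at 4.21 and 4.40 in PC9 and 4.83 and 4.83 in MTAC-P, but all these values lie under 4.86 and its 3 probe sets above the dim value ranged from -0.27 to 0.53.

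The secretory, lysosomal and autophagy genes included 7 lower and 1 higher among 8, against 46.2% of all genes lower. TMED7, a cargo receptor of the early secretory pathway, measured 9.34 and 9.13 in PC9 and 8.43 and 8.27 in MTAC-P, a difference of -0.88, and its 4 probe sets were all lower. MAN2A1, a Golgi mannosidase of N-glycan trimming, measured 7.01 and 7.52 in PC9 and 6.52 and 6.39 in MTAC-P, a difference of -0.80. In both genes the lines were apart on every array. REEP5, which shapes endoplasmic reticulum tubules, measured 10.87 and 10.96 in PC9 and 11.06 and 10.88 in MTAC-P, a difference of 0.052 with overlapping arrays. Of its 10 probe sets above the dim value 7 were lower, and they ranged from -0.90 to 0.077. ST8SIA4, a polysialyltransferase, differed by -0.53, with dim and overlapping arrays, and by -0.19 without PC9 replicate 2.

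APC differed by -0.56, and its arrays, at 5.05 and 5.36 in PC9 and 4.67 and 4.63 in MTAC-P, did not overlap. All 3 probe sets of APC were lower, from -0.56 to -0.085, and the level was low in both lines. MCC measured 4.17 and 4.38 in PC9 and 4.56 and 4.39 in MTAC-P, a difference of 0.20 near the dim value, and 2 of its 4 probe sets above that value had the opposite sign. With a gene's probe sets averaged MCC differed by -0.073 and APC by -0.34, so the opposite signs of the pair held for the brightest probe sets and were lost in that average.

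RGMB was the clearest exception. It encodes a co-receptor for bone morphogenetic proteins, and it measured 6.44 and 4.99 in PC9 and 7.35 and 6.71 in MTAC-P, a difference of 1.31, or 2.48-fold higher. Both MTAC-P arrays lay above both PC9 arrays, but the PC9 duplicates differed by more than the lines did. The RGMB difference was 0.59 when PC9 replicate 2 was left out, 2.04 when PC9 replicate 1 was, and its other probe set differed by 0.14. In gene order it lies between RIOK2 and CHD1, which were lower by nearly equal amounts. EFNA5, an ephrin ligand of cell guidance, differed by -0.30.

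PAM, which amidates peptide hormones, also stood apart from its neighbours. PAM measured 10.02 and 10.39 in PC9 and 10.11 and 10.37 in MTAC-P, a difference of 0.032, and its 3 probe sets ranged from -0.068 to 0.46. The arrays of PAM overlapped. NUDT12, a hydrolase of NAD-type nucleotides, differed by -0.071 with arrays that just did not overlap, while its other probe set differed by -0.41. CCDC112 measured 4.58 and 4.78 in PC9 and 4.81 and 4.88 in MTAC-P, a dim gene with a difference of 0.17. Its other 2 probe sets above the dim value were lower, by -0.12 and -0.18, and with its probe sets averaged CCDC112 differed by -0.043.

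Among the remaining metabolic and membrane genes, FAM174A, a membrane protein gene, measured 8.24 and 8.69 in PC9 and 7.39 and 7.95 in MTAC-P, a difference of -0.80 that was -0.52 without MTAC-P replicate 1. SLC25A46, of the mitochondrial outer membrane, differed by -0.61, and PGGT1B, a subunit of a protein prenyltransferase, by -0.65 (-0.35 without PC9 replicate 1). RFESD differed by -0.36 with overlapping arrays. The genes under the dim value on their 4-array mean were FAM81B, SPATA9, LIX1, SLCO4C1, TMEM232, TSLP, CAMK4, EPB41L4A and CDO1, with differences from -0.30 to 0.16. TSLP, an epithelial cytokine, was among them, at no more than 4.13 on any array. MCTP1 measured 4.61 and 4.76 in PC9 and 4.56 and 4.85 in MTAC-P, and STARD4, a cholesterol carrier, differed by -0.012 at a similar dim level.

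In 3 places, adjacent genes of the stretch start within 1 kb of each other on opposite strands, so that their transcripts run apart from a shared upstream region. The starts lie 163 bases apart for GIN1 and PPIP5K2, 124 for SKIC3 and ARSK and 370 for ATG12 and AP3S1. The promoter windows of the plus-strand gene of each pair are shown because they hold all or part of this shared region, beside those of RHOBTB3 and RGMB, the genes with the largest differences in either direction. Each runs from 250 bases before to 50 bases after a RefSeq start in GRCh38.p14, on the plus strand, at chr5:103120051-103120350 for PPIP5K2, chr5:95554851-95555150 for ARSK, chr5:115841685-115841984 for AP3S1, chr5:95731086-95731385 for RHOBTB3 and chr5:98768382-98768681 for RGMB. Capitals mark matches on either strand. The motifs searched were the TATA box, spelled TATAAA here, and the CCAAT box of that name. Also searched were the GC box bound by Sp-family factors, with the letters GGGCGG, and the site typical of ETS factors, with the letters CCGGAAG. The last was the palindromic motif of the factor NRF1.
PPIP5K2: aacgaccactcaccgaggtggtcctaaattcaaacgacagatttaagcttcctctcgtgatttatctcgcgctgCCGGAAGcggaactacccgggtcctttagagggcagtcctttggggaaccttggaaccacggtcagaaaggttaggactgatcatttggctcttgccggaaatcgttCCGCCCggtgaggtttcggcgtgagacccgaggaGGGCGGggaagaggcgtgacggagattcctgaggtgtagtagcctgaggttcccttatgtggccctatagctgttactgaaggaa
ARSK: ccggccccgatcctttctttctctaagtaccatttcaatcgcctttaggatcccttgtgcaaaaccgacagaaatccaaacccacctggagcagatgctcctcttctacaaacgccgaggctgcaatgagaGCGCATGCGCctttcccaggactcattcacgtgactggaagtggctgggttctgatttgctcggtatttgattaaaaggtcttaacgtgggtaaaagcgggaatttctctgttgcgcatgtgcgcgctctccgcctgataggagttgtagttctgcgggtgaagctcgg
AP3S1: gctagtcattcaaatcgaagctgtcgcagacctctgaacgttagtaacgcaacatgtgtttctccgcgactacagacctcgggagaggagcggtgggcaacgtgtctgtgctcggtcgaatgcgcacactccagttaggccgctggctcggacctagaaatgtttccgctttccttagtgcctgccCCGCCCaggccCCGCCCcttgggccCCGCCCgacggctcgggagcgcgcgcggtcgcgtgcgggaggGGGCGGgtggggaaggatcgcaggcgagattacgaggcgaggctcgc
RHOBTB3: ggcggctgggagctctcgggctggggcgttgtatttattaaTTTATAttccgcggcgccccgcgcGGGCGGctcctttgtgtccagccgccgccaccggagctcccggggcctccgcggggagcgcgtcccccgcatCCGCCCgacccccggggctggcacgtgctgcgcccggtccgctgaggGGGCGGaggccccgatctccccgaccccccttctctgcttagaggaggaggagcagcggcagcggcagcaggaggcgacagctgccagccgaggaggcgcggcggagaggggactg
RGMB: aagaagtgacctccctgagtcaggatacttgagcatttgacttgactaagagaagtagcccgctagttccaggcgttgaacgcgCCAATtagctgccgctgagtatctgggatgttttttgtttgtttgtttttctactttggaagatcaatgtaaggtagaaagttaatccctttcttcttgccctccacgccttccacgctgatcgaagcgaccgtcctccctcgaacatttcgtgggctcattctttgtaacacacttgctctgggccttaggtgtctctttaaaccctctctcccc

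The windows differ in composition. The AP3S1 window holds 4 GC boxes and that of RHOBTB3 has 3 GC boxes with 1 TATA match, whereas the PPIP5K2 window holds 2 GC boxes with 1 ETS-type match. The ARSK window holds 1 NRF1 match and the RGMB window 1 CCAAT match. RefSeq windows, 78 in number, were found for 50 of the 53 genes, with LNPEP, PCSK1 and YTHDC2 but without ELL2, LIX1 and NUDT12. The full set of 35116 windows covers 27305 genes and was not matched to the stretch by gene class. Of the 78 windows, 55.1% held the GC box, against 45.0% of all windows, and 32.1% held CCAAT, against 34.6%. TATAAA was in 8.97% against 11.5%, CCGGAAG in 11.5% against 10.3% and the NRF1 motif in 7.69% against 5.78%. The median ratio of observed to expected CpG was 0.80 in the windows of the stretch and 0.58 in all windows. A match describes the letters of the window and does not show a bound factor.

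In the pairs GIN1 with PPIP5K2 and ATG12 with AP3S1 both genes were lower by similar amounts on their brightest probe sets. With a gene's probe sets averaged, GIN1 differed by -0.34 beside -0.59 for PPIP5K2. In that average ATG12 differed by -0.36 beside -0.43 for AP3S1. GIN1, a gene derived from a retrotransposon integrase, measured 5.39 and 5.27 in PC9 and 4.55 and 4.46 in MTAC-P, a difference of -0.83 beside the -0.76 of PPIP5K2. ATG12, a ubiquitin-like protein of autophagy, measured 8.79 and 8.67 in PC9 and 8.49 and 7.94 in MTAC-P, a difference of -0.51 that was -0.24 without MTAC-P replicate 2. AP3S1, a subunit of an adaptor complex that sorts lysosomal cargo, measured 10.39 and 10.34 in PC9 and 10.01 and 9.87 in MTAC-P, a difference of -0.43. All arrays of these 4 genes were apart between the lines. In the remaining pair, ARSK, a lysosomal sulfatase, was dim at 4.17 and 4.61 in PC9 and 4.20 and 4.46 in MTAC-P, a difference of -0.060 with overlapping arrays beside the -0.91 of SKIC3.

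In chromosomal order the lower values had no sharp edge at the centromeric end. NR2F1 and MCTP1, the first genes of the stretch, were dim, and SKIC3 was the first with a clear signal. Before NR2F1, 13 of the 15 nearest protein-coding genes were lower, against 46.2% of all genes, with a median of -0.26. With no overlap, 9 of the 15 were lower, against 23.3% of all genes. Of these, ARRDC3, an arrestin-domain gene, measured 5.65 and 6.78 in PC9 and 5.21 and 5.07 in MTAC-P. CETN3, a centrin, measured 8.74 and 8.61 in PC9 and 8.06 and 7.86 in MTAC-P, with no overlap. The 10 of these 15 genes above 4.86 had a median of -0.42, and 9 of them were lower, against 47.2% of genes above that level.

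At the telomeric end, TMED7 was the last gene of the stretch with a difference beyond -0.8, followed by ATG12 and AP3S1. That value is of its brightest probe set, and its 4 probe sets ranged from -0.88 to -0.13. COMMD10, a protein of the Commander trafficking complex, measured 9.45 and 9.17 in PC9 and 9.58 and 9.02 in MTAC-P, a difference of -0.016 with overlapping arrays. A second, less bright probe set of COMMD10 differed by -0.57, so the end of the run depends on the probe set. Of the 15 protein-coding genes after COMMD10, 10 were lower, against 46.2% of all genes, and the median was -0.058. With no overlap, 4 of the 15 were lower, or 26.7%, near the 23.3% of all genes. TNFAIP8, a regulator of cell death, at -0.88 and SNX2, a sorting nexin, at -0.69 were lower among genes near 0.

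The 13 genes with a value that lie inside the stretch and are not among the 53 had a median of 0.0053, with 6 lower and 7 higher. The 8 protein-coding genes among them had a median of -0.23, and 5 of these were lower. Of all genes 46.2% were lower. Of the 13 genes, 3 had a mean above 4.86. MACIR differed by -0.56 and SLF1, a DNA repair factor, by -0.37, whereas the antisense RNA gene EPB41L4A-AS1 was higher by 0.35.

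Along the rest of chromosome 5, the 5 blocks of 25 tested genes (those above the dim value) before NR2F1, reaching back to ITGA2, had medians between -0.41 and -0.19. The 4 blocks further out on that side had medians between -0.13 and -0.0305. After COMMD10 the first 2 blocks had medians of -0.058 and -0.20, and the 12 blocks beyond lay between -0.15 and 0.14. The 50 tested genes between NR2F1 and COMMD10, listed or not, had a median of -0.42, close to the -0.41 of the block from UTP15 to THBS4. These medians were not tested against each other. Chromosome 5 as a whole, with a median of -0.063 over 645 tested genes, ranked 4th from the lowest of 23 chromosomes, after chromosomes 4, 13 and 18.

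**Figure D4:**
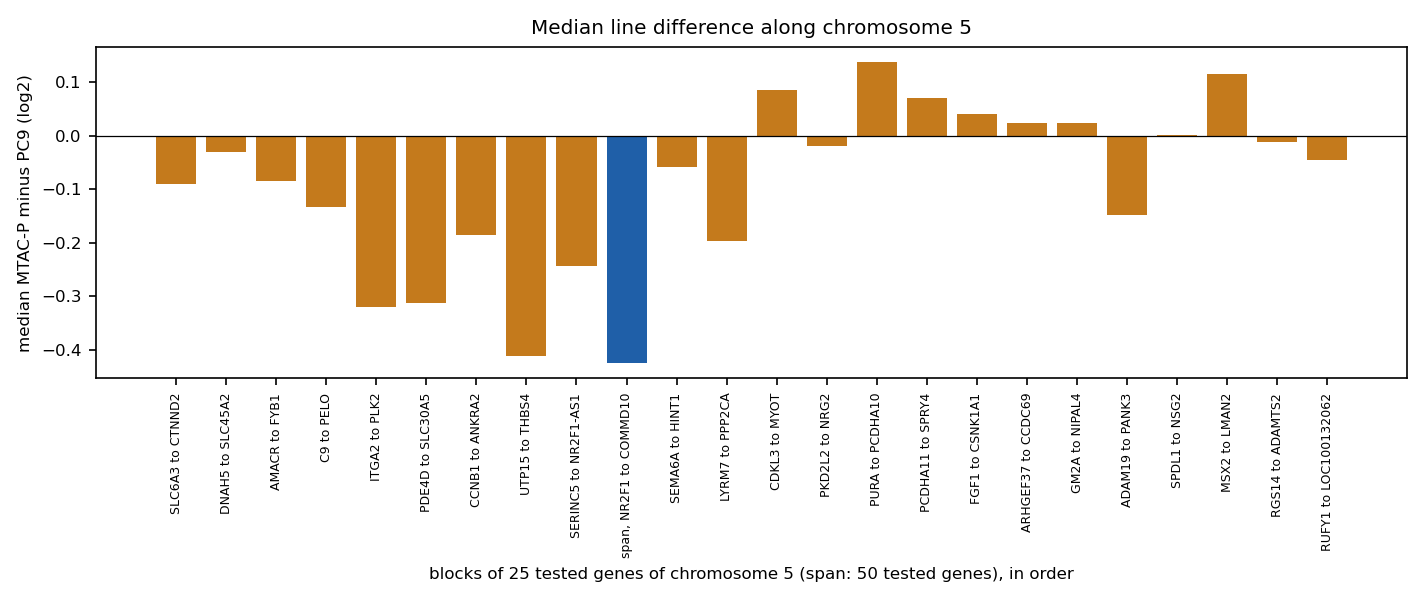
Median difference MTAC-P minus PC9 (y axis, log2) in consecutive blocks of 25 tested genes on each side of the stretch (orange) and in the 50 tested genes from NR2F1 to COMMD10 (blue), in chromosomal order along chromosome 5 (x axis). Outermost genes too few for a full block are not shown. The blue bar is at -0.42, and the 5 blocks to its left lie between -0.41 and -0.19.

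The rule did not use gene length or density, and both moved with the line difference over the array. Density was counted as protein-coding genes of the GRCh38.p14 table with a midpoint within 500 kb. Its median was 4 for the 50 genes and 12 for all genes with a value, and the median gene length was 59.0 kb against 25.7 kb. Among tested genes outside the stretch, the sparsest of 5 equal groups had a median difference of -0.12 and the densest 0.14. By length, the shortest group had a median of 0.10 and the longest -0.087. The 1440 genes outside the stretch above 4.86 and with no more neighbours than 4 had a median of -0.23, and 70.1% of them were lower, beside the median of -0.65 of the 33 genes of the stretch above 4.86, which were not restricted by density. When the trend with length, density and level over all tested genes was removed, 37 of the 50 were lower, with a median of -0.31, and 14 had a difference of -0.5 or lower. The part of gene spacing and length in the lower values was not tested beyond this.

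**Figure D5:**
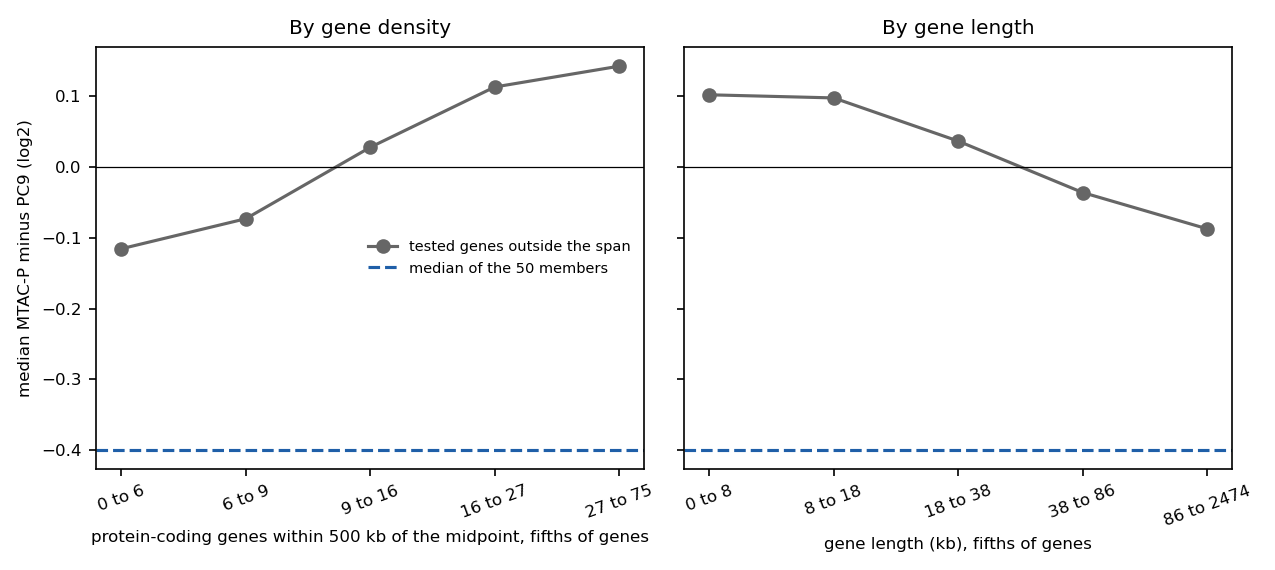
Median difference MTAC-P minus PC9 (y axis, log2) of tested genes outside the stretch in 5 equal groups of gene density (left; x axis, protein-coding genes within 500 kb) and of gene length (right; x axis, kb). The grey line runs from -0.12 to 0.14 with rising density and from 0.10 to -0.087 with rising length, and the dashed line marks the median of -0.40 of the 50 genes.

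MTAC-P replicate 2 lay below MTAC-P replicate 1 for 35 of the 50 genes, with a median of -0.13, against 8666 of all 18239 genes. It did so for 27 of the 33 genes above 4.86, with a median of -0.27, against 5017 of 10589 genes. Over all 10589 genes above that level the same median was 0.021. Between the PC9 duplicates the median of the 33 genes was -0.0015. The part of MTAC-P replicate 2 in the lower values was not tested, and without it 41 of the 50 genes were lower, with a median of -0.31. The median of all tested genes without that array was 0.0048. The median of the 50 genes was -0.29 between the arrays numbered 1 and -0.51 between those numbered 2, and 35 of the 50 genes were lower in both, against 30.8% of all genes. Across the 50 genes the differences of the separate array pairs had a Pearson's r of 0.73 and a Spearman's correlation of 0.68. Both differences are parts of the contrast on which the genes were picked, so this correlation is a description only. The same correlation was not computed over all genes. For 23 of the 50 genes the duplicates of at least 1 line were further apart than the means of the lines. The same held for 11714 of all 18239 genes. Among the 33 brighter genes it held for 10, against 5989 of the 10589 genes above 4.86.

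Of the 50 genes, 32 had further probe sets above the dim value beside the brightest. There were 73 of these further probe sets, of which 60 were lower and 13 higher, with a median of -0.26. Over all genes, 46.4% of 19256 such probe sets were lower. They come from the same arrays and the same contrast, so this too is a description. With the brightest included, 20 of the 32 genes had all of them lower, 11 had both signs, and RGMB had all of them higher. This split was not counted over all genes, so the 20 of 32 has no share to be set against.

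The further probe sets mostly gave smaller differences. Of the 23 genes with a difference of -0.5 or lower, 14 were smaller by over 1.5 times when the probe sets of a gene were averaged. With the median over a gene's probe sets above 4.14, 7 of the 23 were, and 14 genes of the stretch had -0.5 or lower. That median was -0.28 for CAST, -0.37 for TMED7, -0.38 for PJA2, -0.38 for SLC25A46, -0.26 for FBXL17, -0.25 for PGGT1B and -0.0039 for FER. RHOBTB3, ELL2 and GLRX kept medians of -1.61, -0.94 and -0.92.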

How the data were processed

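The authors deposited log2 expression values, for each array and probe set. No source states the scale, and log2 was taken from their range of 3.32 to 14.6. Agilent Feature Extraction 10.7 is named per the submitters' processing notes, yet the probe set names are of Affymetrix type, and background correction, normalization and summarization are not given in the sources used here. Array medians ran from 4.85 to 4.88, so values were used as deposited. The number of arrays limits the precision.

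Of 49386 probe sets, 45259 had 1 symbol and 1327 several in GEO's platform annotation, and older symbols were replaced, through gene identifiers, by those of the RefSeq table of GRCh38.p14. The 3269 genes whose mean was under 4.14, the 25th percentile over probe sets, were left out of the fit but kept in descriptions of the 53 genes. The 14970 tested genes were fitted with limma 3.58.1 in R 4.3.3 (lmFit, eBayes, Benjamini-Hochberg at 0.05), of which 3 passed and 2823 had an unadjusted p under 0.05. This limma step was tested on 20 simulated data sets with 200 changed genes each. It recovered 26.1% of changes of 1 log2 unit, 95.7% of 2 and 98.9% of 3, with 9.1 wrong calls on average. Most 2-fold changes were thus missed in the simulation. Figures used Python 3.11.15 and matplotlib 3.10.9. Spans and flanks follow the RefSeq gene order, and its coordinates were used for order, length, spacing and promoter windows only.

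The 53 genes and the lists were chosen with earlier results of these data known. Array values are given for the 15 tested members with the largest differences, the first and last 3 tested members, tested members that were higher and members of divergent pairs. APC and the flanking genes given with arrays were chosen after their values were seen. Alternatives were quantile normalization, centring each array on its median or its 75th percentile, no filter or one at the 50th percentile, other summaries of probe sets, a pseudocount of 16 on the linear scale, removal of the trend with length, density and level (loess, span 0.5), a replicate block, a variance trend, a robust prior and leaving out each array.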

Additional observations from a re-analysis of the deposited data

How the results depend on the processing

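The median difference of the 50 genes, -0.40, was negative under all alternatives listed under processing and lay between -0.52 and -0.31 when 1 array was left out. It was -0.31 with the pseudocount of 16, -0.30 when a gene's probe sets were averaged and -0.31 with the trend with length, density and level removed. The count of lower genes, 40, lay between 38 and 41 without an array. The count of those with arrays that did not overlap, 32, was 25 with averaged probe sets, 27 with the trend removed and 29 with centring on the 75th percentile. The count of genes at least 2-fold lower, 3, was 1 with the mean of all probe sets and 1 with the median of a gene's brighter probe sets. It lay between 2 and 6 without an array, at 5 without PC9 replicate 1 and 6 without MTAC-P replicate 1. Of the 23 genes with differences of -0.5 or lower, 0 turned sign and 7 moved by more than 1.5 times when 1 array was left out, while 9 of the other 27 genes turned sign. With a gene's probe sets averaged, 7 of the 50 genes turned sign, of which 0 were among the 23. Over all tested genes, 243 were at least 2-fold lower, against 132 with the pseudocount, 82 with the mean and 103 with the median of probe sets, 153 with the trend removed and 202 to 518 without an array, the last without MTAC-P replicate 1. The 3 genes past limma's threshold became 1 with the pseudocount, 1 with the 50th percentile filter, 77 with a variance trend and 0 to 68 without an array. The count was 0 with the mean of probe sets, where 2780 had an unadjusted p under 0.05 in limma. It was 0 without MTAC-P replicate 1 (3434 unadjusted) or MTAC-P replicate 2 (2012 unadjusted) and 68 without PC9 replicate 1. With the replicate number as a block 2079 passed, and the deviations of same-numbered arrays had a Pearson's r of 0.28 over 14970 genes. The labels do not say that the numbers pair the arrays, and with 2 pairs this cannot be settled. The causes of these changes were not tested, and no alternative on filter, block or prior changes the values of the 53 genes. The median of probe sets gave no array overlaps and no limma fit, so neither count was run for it.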
